A study of Homo sapiens with 10 samples.

Results

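Axon guidance genes encode secreted and membrane-bound cues and the receptors that read them, and 44 of these genes were followed in the MDA-MB-231 breast cancer cell line and in tumour lines grown from it. The genes came from a fixed list of Slits, netrins, semaphorins and ephrins with the Robo, netrin, neuropilin and plexin receptors and the teneurin TENM3. The list was chosen with earlier results of these data known, so its shares beside those of all genes are descriptions. A probe set, the group of short probes that reports one transcript on an Affymetrix array, was taken only where it was annotated to a single listed gene. Each gene was represented by its probe set with the highest mean log2 value over the 10 arrays. All 44 had such a probe set, of 19775 genes measured in this way, and 40 of them were among the 14929 genes tested, which needed log2 5 or more on at least 2 arrays.

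Total RNA was measured from 5 lines, with 2 arrays each. The parental line was cultured MDA-MB-231 cells, a triple-negative, mesenchymal-like breast cancer line, and the labels call it sensitive to the drug. The drug, SM-164, belongs to the Smac mimetics, compounds that bind inhibitor of apoptosis proteins. The tumour lines T2, T3, T6 and T8 were cells taken from regrown MDA-MB-231 xenografts after the SCID host mice had received SM-164 by vein at 5 mg/kg, 5 days a week for 2 weeks. T2 and T3 are labelled resistant to SM-164, and T6 and T8 are labelled sensitive. Growth in the mouse, drug exposure and isolation of the cells were shared by all 4 tumour lines, and no xenograft without drug was measured, so these cannot be told apart in a comparison with the parental cells. Each tumour is 1 line, and whether its 2 arrays stem from separate cultures is not stated, so a p-value over arrays measures the spread between arrays, which may be technical.

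In the developing nervous system, axon guidance cues attract or repel a growing nerve tip. Slits act through Robo receptors, netrins through DCC, neogenin and UNC5 receptors, secreted semaphorins through neuropilins and plexins, and ephrins through Eph receptor tyrosine kinases. The same proteins act outside the nervous system on blood vessel growth, cell adhesion and migration, and in breast epithelium Slit, Robo and netrin proteins take part in gland formation.

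Array medians lay between log2 5.43 and 5.57, and the arrays of a line correlated more closely (Pearson's r of 0.996 to 0.998 over genes) than arrays of different lines (0.973 to 0.995). Of the 40 tested genes, 35 were at log2 5 or more on all 10 arrays. The other 5 reached it on fewer: NTN1 on 9, SLIT3 on 6, UNC5C on 4, SEMA3B on 3 and SEMA3E on 2. ROBO2, DCC, PLXNA4 and SEMA3D stayed between log2 3.55 and 4.74 and were not tested. Markers of a mesenchymal-like breast cancer cell were high in every line, with a mean of log2 12.6 to 12.8. Of 6 luminal markers, PGR, FOXA1 and ELF5 stayed below log2 5 on every array, while the line means of GATA3 were 7.69 to 8.82, of ESR1 6.56 to 6.71 and of ERBB3 6.48 to 6.80.

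The first question was which guidance genes differed between the regrown tumours and the parental cells. ROBO1, TENM3 and NTN4 were higher in the tumours by at least 1 log2 unit, as were 1.78% of all genes tested, and PLXNA1 was lower by at least 1, as were 0.877%. SEMA4D, a membrane-bound semaphorin, and EFNB2, an ephrin of arteries, were also lower, by 0.93 ± 0.09 and 0.69 ± 0.08 (log2 difference ± standard error, SE). In limma's fit over arrays, 19 of the 40 tested genes passed a Benjamini-Hochberg adjusted p of 0.05 (47.5%), against 42.3% of all genes tested. Of the 19, 10 were higher (25.0%, against 25.5% of all genes) and 9 were lower (22.5%, against 16.8%). With the array medians centred, 10 were higher and 4 were lower. SEMA3E is in these counts although it passed the filter through T3 alone. The median difference was 0.00 over the 40 and 0.00 over all genes. The share called was thus near the background, and what follows concerns single genes rather than the group.

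When the tumour rather than the array was the replicate, 3 of the 40 were called (7.50%, against 1.31% of all genes): ROBO1, TENM3 and PLXNA1. Every tumour array lay above both parental arrays for ROBO1, TENM3, NTN4, PLXNC1, SEMA4F and EFNA5, which is 6 of 40 (15.0%, against 15.7% of all genes). Every tumour array lay below both for UNC5C, PLXNA1, PLXNA3, PLXNB1, SEMA4D, EFNA4 and EFNB2, which is 7 of 40 (17.5%, against 12.4%). Of these, UNC5C was near the filter and was not called over arrays. With the line as a random block, 5 of the 19 calls remained: ROBO1, TENM3 and NTN4 higher, and PLXNA1 and SEMA4D lower.

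**Figure D1:**
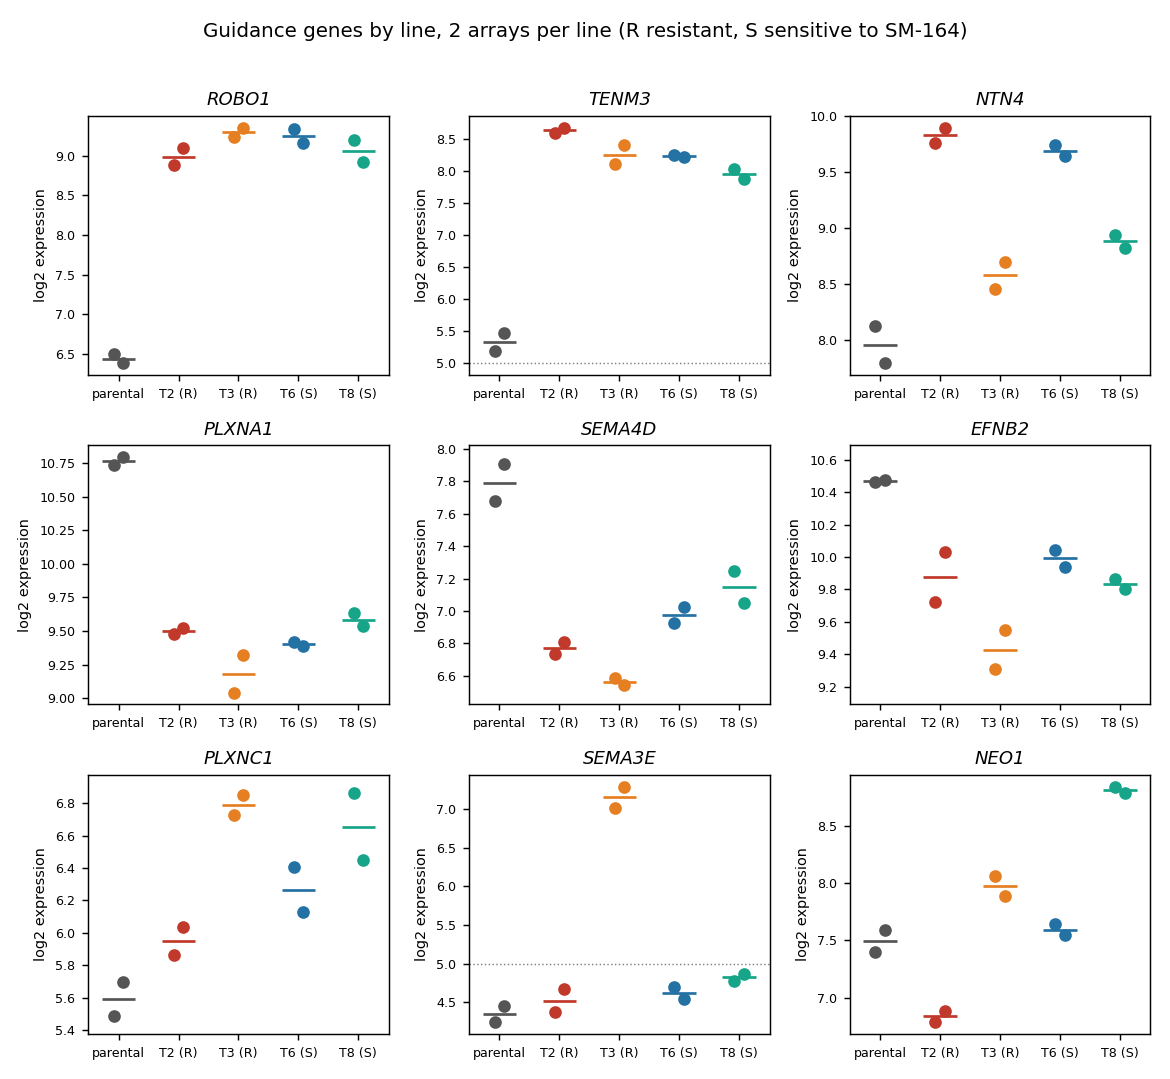
Log2 values of selected guidance genes on each array, by line (parental, T2, T3, T6, T8), with 2 arrays as points and the line mean as a bar; the dotted line is the filter at log2 5. ROBO1 and TENM3 are high in all 4 tumours, PLXNA1, SEMA4D and EFNB2 are low in all 4, and SEMA3E is above log2 5 in T3 alone.

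The stretches just upstream of a listed start of the 3 genes called with the tumour as the replicate are shown first, followed by those of NTN4, the remaining gene past 1 log2 unit, and SEMA3E, the gene that differed most between tumours. Each is the 250 bases before a transcript start listed by RefSeq on GRCh38.p14, written 5′ to 3′ on the gene's strand; where several starts were listed, the first in the table was used. The TENM3 start used lies inside the gene as RefSeq bounds it, and the other 4 lie at the gene's outer end. Capitals mark matches on either strand to GGGCGG (the GC box bound by SP proteins) and CCAAT (the CCAAT box); TGANTCA (the AP-1 site) and TATAAA (the TATA box) were searched too and do not occur in these 5 windows. No match shares letters with a different motif, while some neighbouring GGGCGG matches of PLXNA1 share a base.
ROBO1: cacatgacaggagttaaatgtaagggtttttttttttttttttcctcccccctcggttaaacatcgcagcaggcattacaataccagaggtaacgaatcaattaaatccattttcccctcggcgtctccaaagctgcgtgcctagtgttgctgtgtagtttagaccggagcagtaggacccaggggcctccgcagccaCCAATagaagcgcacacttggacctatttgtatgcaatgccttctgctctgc
TENM3: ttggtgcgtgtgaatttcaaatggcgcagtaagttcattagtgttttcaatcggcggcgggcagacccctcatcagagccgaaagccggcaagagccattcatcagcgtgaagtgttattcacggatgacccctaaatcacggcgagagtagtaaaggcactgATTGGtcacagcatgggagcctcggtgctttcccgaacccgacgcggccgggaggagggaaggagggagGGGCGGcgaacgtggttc
PLXNA1: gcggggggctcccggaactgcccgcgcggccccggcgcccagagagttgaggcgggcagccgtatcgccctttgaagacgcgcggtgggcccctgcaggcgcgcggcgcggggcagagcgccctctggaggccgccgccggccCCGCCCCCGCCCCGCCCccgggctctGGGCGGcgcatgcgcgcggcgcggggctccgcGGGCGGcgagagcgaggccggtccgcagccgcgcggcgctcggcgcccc
NTN4: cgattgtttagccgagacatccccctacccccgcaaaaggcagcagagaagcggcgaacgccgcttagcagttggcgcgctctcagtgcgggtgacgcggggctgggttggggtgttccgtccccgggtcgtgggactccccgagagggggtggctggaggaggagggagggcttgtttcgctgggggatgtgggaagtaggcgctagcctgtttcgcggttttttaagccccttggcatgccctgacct
SEMA3E: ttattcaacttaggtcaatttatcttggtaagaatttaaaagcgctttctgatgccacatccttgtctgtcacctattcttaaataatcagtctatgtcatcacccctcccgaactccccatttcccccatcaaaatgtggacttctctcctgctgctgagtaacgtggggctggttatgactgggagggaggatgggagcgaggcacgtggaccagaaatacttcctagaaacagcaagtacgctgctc

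The windows lie at chr3:79767999-79768248 on the minus strand (ROBO1), chr4:182143713-182143962 on the plus strand (TENM3), chr3:126982865-126983114 on the plus strand (PLXNA1), chr12:95791156-95791405 on the minus strand (NTN4) and chr7:83649140-83649389 on the minus strand (SEMA3E). The PLXNA1 window was 84.4% G and C and held 5 GGGCGG matches. TENM3 had 1 GGGCGG and 1 CCAAT in a window of 56.8% G and C, and ROBO1 had 1 CCAAT in one of 48.0%. The NTN4 window (64.4%) and the SEMA3E window (46.4%) held none of the 4 motifs. Windows were listed for 38 of the 44 genes. Among these 38, GGGCGG occurred in 25 (65.8%, against 42.3% of 27305 gene windows of the same length) and CCAAT in 11 (28.9%, against 33%). TGANTCA occurred in 1 (PLXNC1; 2.63%, against 6.6%) and TATAAA in 1 (EFNB2; 2.63%, against 11.1%). The median G and C content was 66.0% in the guidance genes and 58.0% over all windows, with a median of 19.5 and 11 CG dinucleotides. These are matches of letters, and binding there was not measured. As for TENM3, the windows of some other listed genes lie inside the gene as RefSeq bounds it, that of PLXNC1 among them.

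Among the Slit ligands, which repel axons and are processed from large secreted proteins, none of the 3 tested was called in the tumours as a group. SLIT2 read 8.40 and 8.63 in parental cells, 8.0 and 8.14 in T2, 8.90 and 9.0 in T3, 8.21 and 8.14 in T6, and 8.52 and 8.48 in T8. T3 was thus above the parental arrays and T2 and T6 were below them, while T8 lay between the parental values. SLIT1 was lower in T6 (-0.44) and T8 (-0.40), both called, while its differences in T2 and T3 were not. SLIT3 was near the filter, at log2 4.62 to 5.23 on the 10 arrays.

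ROBO1, a receptor that carries the Slit signal across the membrane, read 6.49 and 6.38 in the parental cells. It read 8.88 and 9.10 in T2, 9.24 and 9.35 in T3, 9.34 and 9.16 in T6, and 9.20 and 8.91 in T8. All 8 tumour arrays lay more than 2 log2 units above both parental arrays, and the tumours differed little among themselves. The tumour mean was higher by 2.71 ± 0.09, or 6.54-fold (adjusted p = 8.93e-12, limma over arrays). With the tumour as the replicate the difference was 2.71 ± 0.17 (adjusted p = 0.00307, limma on line means). By tumour the differences were 2.55 in T2, 2.86 in T3, 2.81 in T6 and 2.62 in T8, all called. These 4 comparisons share the parental arrays. The span of 0.31 between the tumour means did not pass the test among tumours (adjusted p = 0.086). ROBO1 had a single probe set. ROBO3, a divergent Robo of commissural axons, was called in T8 alone (0.30), and ROBO2, the protein-coding neighbour of ROBO1 on chromosome 3, was below log2 5 on every array (3.63 to 4.04).

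TENM3 encodes a teneurin, a large transmembrane protein that binds latrophilins across cell contacts and helps match connecting neurons. Its probe set read 5.19 and 5.47 in parental cells. It read 8.59 and 8.67 in T2, 8.10 and 8.40 in T3, 8.26 and 8.22 in T6, and 8.02 and 7.87 in T8. The parental arrays were close to the filter of log2 5 and every tumour array was far above them, with T2 highest and T8 lowest. The difference was 2.93 ± 0.09, or 7.65-fold (adjusted p = 8.93e-12, limma over arrays), and 2.93 ± 0.25 with the tumour as the replicate (adjusted p = 0.0103, limma on line means). By tumour it was 3.30 in T2, 2.92 in T3, 2.91 in T6 and 2.61 in T8, all called. The result rests on 1 probe set, of the kind whose name (_s_at) marks probes shared by several transcripts. The only other TENM3 set to pass the filter gave -0.12, and the mean of all its sets gave 0.97. The related teneurin TENM2 passed the filter through T6 alone, with means of 4.05 in parental cells, 3.83 in T2, 4.68 in T3, 5.75 in T6 and 4.23 in T8.

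NTN4 encodes netrin-4, a basement membrane netrin that binds laminin. It read 8.13 and 7.80 in parental cells, 9.76 and 9.90 in T2, 8.46 and 8.70 in T3, 9.74 and 9.65 in T6, and 8.94 and 8.83 in T8. Every tumour was above the parental cells, but T2 and T6 were well above T3 and T8. The tumour mean was higher by 1.28 ± 0.09, or 2.43-fold (adjusted p = 2.7e-08, limma over arrays). The differences were 1.87 in T2, 0.62 in T3, 1.73 in T6 and 0.92 in T8, all called. With the tumour as the replicate it was 1.28 ± 0.48 and not called (adjusted p = 0.253, limma on line means). NTN4 had 1 probe set. NTN1, the founding netrin, stayed between 4.92 and 5.46 on all arrays and was not called.

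NEO1 encodes neogenin, a relative of DCC that binds netrins and repulsive guidance molecules. It read 7.40 and 7.59 in parental cells, 6.79 and 6.89 in T2, 8.06 and 7.89 in T3, 7.64 and 7.55 in T6, and 8.84 and 8.79 in T8. T2 lay below both parental arrays, T6 overlapped them, and T3 and T8 lay above. Against the parental arrays NEO1 fell in T2 (-0.66, adjusted p = 0.000133) and rose in T3 (0.48, adjusted p = 0.00169) and T8 (1.32, adjusted p = 1.4e-07; limma over arrays). The mean over tumours, 0.31 ± 0.08 (adjusted p = 0.00621), therefore joined tumours of opposite direction, and without T8 it was -0.03; without parental replicate 1 it was 0.21 and not called. The other NEO1 probe set to pass the filter gave -0.16, 0.60, 0.09 and 1.12 in T2, T3, T6 and T8, in the same order. Of the UNC5 receptors, which turn netrin into a repellent, UNC5B was lower by 0.27 ± 0.09 (adjusted p = 0.0237), with single calls in T6 (-0.40) and T8 (-0.35); the call was lost without either parental replicate, without T6 and with centred array medians. UNC5C was near the filter, at 4.61 to 5.17, and was not called. On its other probe set past the filter the difference was 0.16, and tumour and parental arrays overlapped. DCC, the classical netrin receptor, was at 3.87 to 4.46.

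NRP1 and NRP2, the co-receptors that bind secreted semaphorins and vascular endothelial growth factor, were not called. NRP1 read 10.42 and 10.20 in parental cells and 10.14 to 10.72 in the tumours, so the groups overlapped. On a second NRP1 probe set every tumour array lay below both parental arrays, with a difference of -0.30. NRP2 read 6.41 and 6.79 in parental cells and 6.49 to 6.93 in the tumours. Between tumour means the NRP2 set used spanned 0.15, while its other sets past the filter spanned 0.09 to 0.86. The widest gave -0.27 in T2 and 0.59 in T3.

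Among plexins, the signalling receptors of semaphorins, 1 of 7 tested was higher and 4 were lower (25.5% and 16.8% of all genes). PLXNA1, which signals with neuropilins, read 10.74 and 10.79 in parental cells, 9.48 and 9.52 in T2, 9.04 and 9.32 in T3, 9.42 and 9.39 in T6, and 9.63 and 9.54 in T8. All tumour arrays were more than 1 log2 unit below both parental arrays, and T3 was lowest. The tumour mean fell by 1.35 ± 0.07 on the log2 scale, a level 2.55-fold lower (adjusted p = 9.18e-10, limma over arrays). With the tumour as the replicate the difference was -1.35 ± 0.18 (adjusted p = 0.0317, limma on line means). The other 2 PLXNA1 probe sets gave -0.43 and -0.33, and on the mean of all sets (-0.70) that last call was lost (adjusted p = 0.0712). It was also lost on the set giving -0.43, the one kept when less specific sets were left out (adjusted p = 0.288), and without T6 (adjusted p = 0.103) or without T8 (adjusted p = 0.0862; limma on line means).

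The other A-class plexin called, PLXNA3, was lower by 0.36 ± 0.08 (adjusted p = 0.00165, limma over arrays), with calls in each tumour from -0.52 in T2 to -0.28 in T3. PLXNC1, a receptor of SEMA7A, read 5.49 and 5.70 in parental cells, 5.86 and 6.03 in T2, 6.73 and 6.85 in T3, 6.40 and 6.13 in T6, and 6.86 and 6.45 in T8. All tumour arrays lay above the parental ones, T2 the least. The difference was 0.82 ± 0.12 (adjusted p = 6.48e-05), with 0.35 in T2 not called. Its 2 other passing probe sets gave -0.03 and 0.41. PLXNB1, the receptor of SEMA4D, was lower by 0.27 ± 0.10 (adjusted p = 0.0419), a call that 14 of 22 alternatives did not keep. PLXND1, a receptor of SEMA3E, was lower by 0.25 ± 0.07 (adjusted p = 0.00675), and without T3 the difference was -0.11 and not called, nor was it called without parental replicate 1 (-0.23). PLXNA2 and PLXNB2 were not called over the tumours.

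**Figure D2:**
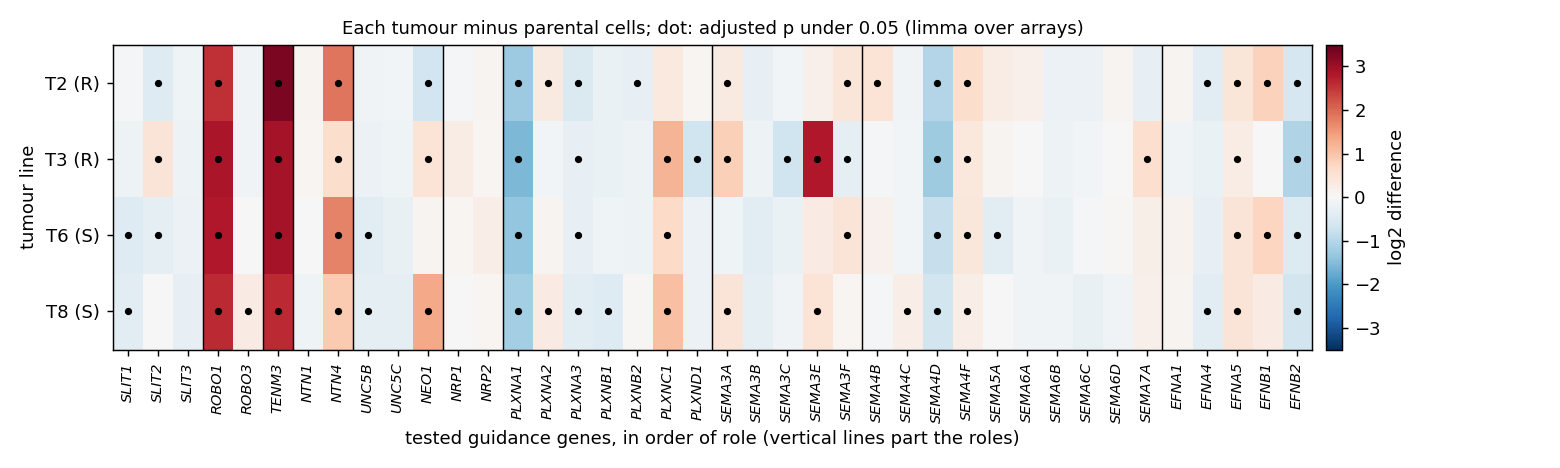
Heat map of the log2 difference of each tumour line (rows) from parental cells for the 40 tested guidance genes (columns, ordered by role), with a dot where limma's adjusted p over arrays was under 0.05. The columns of ROBO1 and TENM3 are high and dotted in every tumour, PLXNA1 is low and dotted in every tumour, and SEMA3E is 2.80 higher in T3 against 0.48 or less in the others.

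Of the secreted semaphorins, 2 of 5 tested were higher and 1 was lower (25.5% and 16.8% of all genes); SEMA3E is one of those higher. SEMA3E, which signals through PLXND1 in vessels and axons, read 4.24 and 4.45 in parental cells, 4.37 and 4.67 in T2, 7.01 and 7.29 in T3, 4.70 and 4.55 in T6, and 4.78 and 4.86 in T8. It reached log2 5 on the T3 arrays alone, and so passed the filter through T3. The log2 differences from parental cells were 2.80 in T3, 0.48 in T8, 0.28 in T6 and 0.18 in T2. Since the gene was tested only because T3 was high, these are a description, and its calls support nothing; without T3 the tumour mean was 0.31. SEMA3E had 1 probe set, of the kind whose name marks possible cross-hybridisation.

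SEMA3A, a repellent that acts through NRP1 and A-class plexins, read 7.69 and 7.76 in parental cells, 7.96 and 8.13 in T2, 8.43 and 8.67 in T3, 7.65 and 7.52 in T6, and 8.25 and 8.12 in T8. T3 was highest, and T6 lay below both parental arrays by a difference (-0.14) that was not called. Over the tumours it was higher by 0.37 ± 0.08 (adjusted p = 0.00258), and a second probe set gave 0.30. SEMA3C was lower by 0.29 ± 0.09 (adjusted p = 0.0185), with T3 (-0.70, adjusted p = 0.000214) the one tumour called; without T3 the difference was -0.15, without parental replicate 1 it was -0.12, and neither was called. SEMA3F, a ligand of NRP2, was not called as a mean but moved both ways: it rose in T2 (0.43, adjusted p = 0.00398) and T6 (0.45, adjusted p = 0.00331) and fell in T3 (-0.35, adjusted p = 0.0138; limma over arrays). Another SEMA3F probe set gave 1.55 in T2, 0.02 in T3, 1.56 in T6 and 0.90 in T8, so its T3 arrays were near the parental ones rather than below them.

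Of the 10 membrane-anchored semaphorins tested, 1 was higher and 1 was lower (25.5% and 16.8% of all genes). SEMA4D read 7.68 and 7.90 in parental cells, 6.73 and 6.81 in T2, 6.58 and 6.54 in T3, 6.93 and 7.02 in T6, and 7.25 and 7.05 in T8. All tumour arrays were below both parental arrays, and T3 was lowest. The tumour level was 1.90-fold lower, at -0.93 ± 0.09 (adjusted p = 1.01e-06, limma over arrays). With the tumour as the replicate it was -0.93 ± 0.23 and not called (adjusted p = 0.127, limma on line means). A second SEMA4D probe set gave -0.59. SEMA4F was higher by 0.41 ± 0.07 (adjusted p = 0.00023), with calls in each tumour from 0.63 in T2 to 0.23 in T8. SEMA4B was called in T2 alone (0.47), SEMA4C in T8 alone (0.24), SEMA5A in T6 alone (-0.37) and SEMA7A in T3 alone (0.58). The class 6 semaphorins SEMA6A, SEMA6B, SEMA6C and SEMA6D were not called over the tumours. For SEMA6B the set used gave -0.18, while the other 2 past the filter gave -0.59 and -0.58.

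Of 5 ephrins, the membrane-bound ligands of Eph receptors, 2 were higher and 2 were lower (25.5% and 16.8% of all genes). EFNB2 read 10.46 and 10.47 in parental cells, 9.72 and 10.03 in T2, 9.31 and 9.55 in T3, 10.05 and 9.94 in T6, and 9.86 and 9.81 in T8. All tumour arrays were below the parental ones, a level 1.61-fold lower (adjusted p = 5.93e-06, limma over arrays), and a second probe set gave -0.88. With the tumour as the replicate EFNB2 was not called (adjusted p = 0.21, limma on line means). EFNB1 read 6.55 and 6.75 in parental cells, 7.37 and 7.53 in T2, 6.70 and 6.58 in T3, 7.45 and 7.34 in T6, and 7.01 and 6.86 in T8. It rose in T2 (0.80, adjusted p = 6.64e-05) and T6 (0.75, adjusted p = 0.000152), whereas T3 overlapped the parental arrays (-0.01). EFNA5 was higher by 0.39 ± 0.07 (adjusted p = 0.000303) with calls in each tumour, from 0.27 in T3 to 0.45 in T8. EFNA4 was lower by 0.31 ± 0.09 (adjusted p = 0.0118), a difference of -0.15 and not called without parental replicate 1. EFNA1 was not called.

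**Figure D3:**
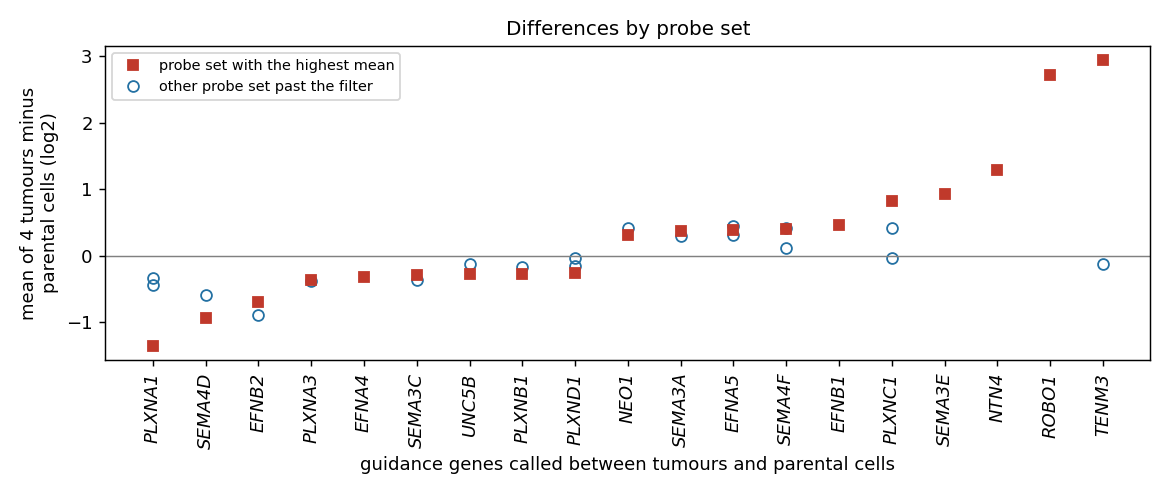
Log2 difference of the tumours from the parental cells for each probe set that passed the filter, for the guidance genes called over arrays, with the probe set used for the gene as a square and other probe sets as open circles. TENM3 and PLXNC1 have another probe set below 0, and the other PLXNA1 sets lie between -0.43 and -0.33.

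In all, 14 of the 19 called genes had another probe set past the filter. In 12 of them every other set had the sign of the one used, and in TENM3 and PLXNC1 at least 1 set had the opposite sign. The 21 genes not called had differences from -0.30 to 0.16 with SEs of 0.06 to 0.15, and adjusted p from 0.0562 to 0.998 in limma's fit over arrays. Of these, 13 had another probe set past the filter, 22 sets in all. On 3 of the 22 every tumour array lay below both parental arrays (NRP1 -0.30, PLXNA2 -0.38 and SEMA6B -0.59), and on none did every tumour array lie above them.

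Further genes of the same pathways came from lists fixed beside the main list, also with earlier results of these data known. Their counts stand against 25.5% of all genes higher and 16.8% lower. Of 14 Eph receptors, which bind the ephrins, 8 were tested: EPHA2 was higher (0.19 ± 0.06, adjusted p = 0.0139), and EPHB6 (-0.56 ± 0.16, adjusted p = 0.0102), EPHB4, the receptor of EFNB2 (-0.45 ± 0.06, adjusted p = 4.02e-05), and EPHA1 (-0.41, adjusted p = 0.01) were lower, with a median of -0.02. Of 31 other guidance ligands and receptors, 22 were tested, with 4 higher (TENM2 among them), 3 lower and a median of -0.09. L1CAM, a neuronal adhesion molecule that binds neuropilin-1, was lower by 2.35 ± 0.10 on the log2 scale (-2.35, adjusted p = 2.24e-10), with line means of 8.82 in parental cells, 6.48 in T2, 5.67 in T3, 6.75 in T6 and 7.0 in T8. RGMB, a ligand of neogenin, was higher by 0.90 ± 0.06 (adjusted p = 1.79e-08), and the endothelial Robo ROBO4 by 0.82 (adjusted p = 1.28e-07). Of 39 intracellular effectors, 35 were tested, with 6 higher, 11 lower and a median of -0.14. ENAH, which extends actin filaments, was higher by 0.62 ± 0.06 (adjusted p = 8.8e-07), MICAL1, an actin oxidase downstream of plexins, by 0.55 ± 0.08 (adjusted p = 9.78e-05) and FARP1 by 0.49 ± 0.07 (adjusted p = 3.46e-05). LIMK1, the cofilin kinase, was lower (-0.76 ± 0.09, adjusted p = 7.29e-06), as were the ephexin NGEF (-0.55 ± 0.08, adjusted p = 3.8e-05) and the kinase ABL1 (-0.52 ± 0.06, adjusted p = 4.22e-06; all limma over arrays).

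Markers of other cells were read beside these values. In bulk RNA, fewer cells of a type and less RNA per cell cannot be told apart. Of 9 endothelial markers, none was below log2 5 on every array, and 5 were higher and none lower in the tumours, against 25.5% and 16.8% of all genes. ESAM (1.29 ± 0.05), ENG (1.0 ± 0.10) and KDR (0.41) were above the parental mean in every tumour. CDH5 and TIE1 passed the filter through T8 alone. CDH5 had means of 3.59 in parental cells, 3.55 in T2, 3.35 in T3, 4.27 in T6 and 5.16 in T8. The other 4, PECAM1 (-0.18), VWF (-0.16), CLDN5 (-0.08) and TEK (-0.07), had lower tumour means and were not called. The mean of the 9 markers was 5.79 to 5.85 on parental arrays. It was 6.12 to 6.20 in T2, 5.99 to 6.05 in T3, 6.13 to 6.20 in T6 and 6.34 to 6.39 in T8. The part of endothelial markers in the results for the guidance genes was not tested. Of 8 fibroblast and pericyte markers, COL3A1 and LUM were below log2 5 everywhere, and of 6 tested none was higher and 2 were lower. PTPRC, the pan-leukocyte marker, was below log2 5 everywhere, and of 5 macrophage markers tested none was higher and 3 were lower. Of 8 neuronal and glial markers, GAP43, NEFL, MAP2 and S100B were below log2 5 everywhere, TUBB3 was high and higher in the tumours (0.13, from a parental mean of 13.1), GFAP was lower (-0.33), SYP and RBFOX3 were not called, and the mean of the list was 5.81 to 6.0 over all arrays. Host cells in a xenograft are mouse cells, and binding of mouse transcripts to these human probes was not tested.

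The second question was how the regrown tumours differed among themselves. In limma's F-test over the 4 tumours, 22 of the 40 guidance genes were called (55.0%, against 41.7% of all genes). The span, the highest minus the lowest tumour mean, was at least 1 log2 unit in SEMA3E, NEO1 and NTN4, which is 3 of 40 (7.50%, against 3.84%). The median span was 0.38 over the 40 and 0.30 over all genes. SEMA3E spanned 2.63, with T3 highest and T2 lowest; it is in both counts but had passed the filter through T3 alone, so its span is a description. NEO1 spanned 1.98 (adjusted p = 1.73e-08), with T8 highest and T2 lowest. NTN4 spanned 1.25 (adjusted p = 9.87e-07), with T2 highest and T3 lowest. Of the 22 calls, 7 were lost on leaving out a single array: PLXNA1 and SEMA3C without T3 replicate 1, SEMA4F without T2 replicate 2, SEMA5A without T6 replicate 1, SEMA4C without T8 replicate 1, PLXNB2 without T8 replicate 2 and ROBO3 without either T8 replicate.

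SEMA3A spanned 0.97 (adjusted p = 3.53e-05), with T3 highest and T6 lowest. SEMA3E and SEMA3A are neighbouring protein-coding genes on chromosome 7 in GRCh38.p14, and SEMA3D follows SEMA3A. T3 was the highest tumour for both SEMA3E and SEMA3A, whereas SEMA3D was at 3.55 to 3.94 on every array. SEMA3C, with 3 genes between it and SEMA3E (HGF, CACNA2D1 and PCLO), was lowest in T3, with a span of 0.60 (adjusted p = 0.00209). PLXND1, the receptor of SEMA3E, read 8.82 and 8.77 in parental cells, 8.92 and 8.79 in T2, 8.19 and 8.03 in T3, 8.63 and 8.58 in T6, and 8.59 and 8.62 in T8. T3, the tumour with high SEMA3E, thus had the lowest PLXND1, at -0.69 from parental cells (adjusted p = 1.51e-05, limma over arrays). Of the other 2 PLXND1 probe sets, 1 gave -0.75 in T3 and 1 gave 0.02.

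SLIT2 spanned 0.88 (adjusted p = 1.3e-05): it rose in T3 (0.44, adjusted p = 0.00189) and fell in T2 (-0.44, adjusted p = 0.00193) and T6 (-0.34, adjusted p = 0.012; limma over arrays). Its other probe sets spanned 1.21 and 1.07, also with T3 highest and T2 lowest. On them the T6 difference was only -0.04 and -0.09, and the T6 arrays overlapped the parental ones. SEMA3F spanned 0.80 (adjusted p = 4.61e-05), with T6 highest and T3 lowest, and EFNB1 0.81 (adjusted p = 0.000109), with T2 highest and T3 lowest. SEMA7A spanned 0.87 (adjusted p = 0.000494), with T3 highest, but its other probe set spanned 0.26 and gave -0.17 in T3. NTN4, SEMA3F and EFNB1 all had higher means in T2 and T6 than in T3 and T8, and NEO1, SLIT2, SEMA3A and PLXNC1 all had lower means in T2 and T6 than in T3 and T8. These 7 genes were singled out after their values were seen, and the split was not tested. For PLXNC1 the order depended on the probe set. Another set past the filter gave 0.08 in T2 and 0.05 in T6, against -0.17 in T3 and -0.09 in T8. A further set gave 0.02 in T2 and 0.48 in T6, against 0.62 in T3 and 0.54 in T8.

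**Figure D4:**
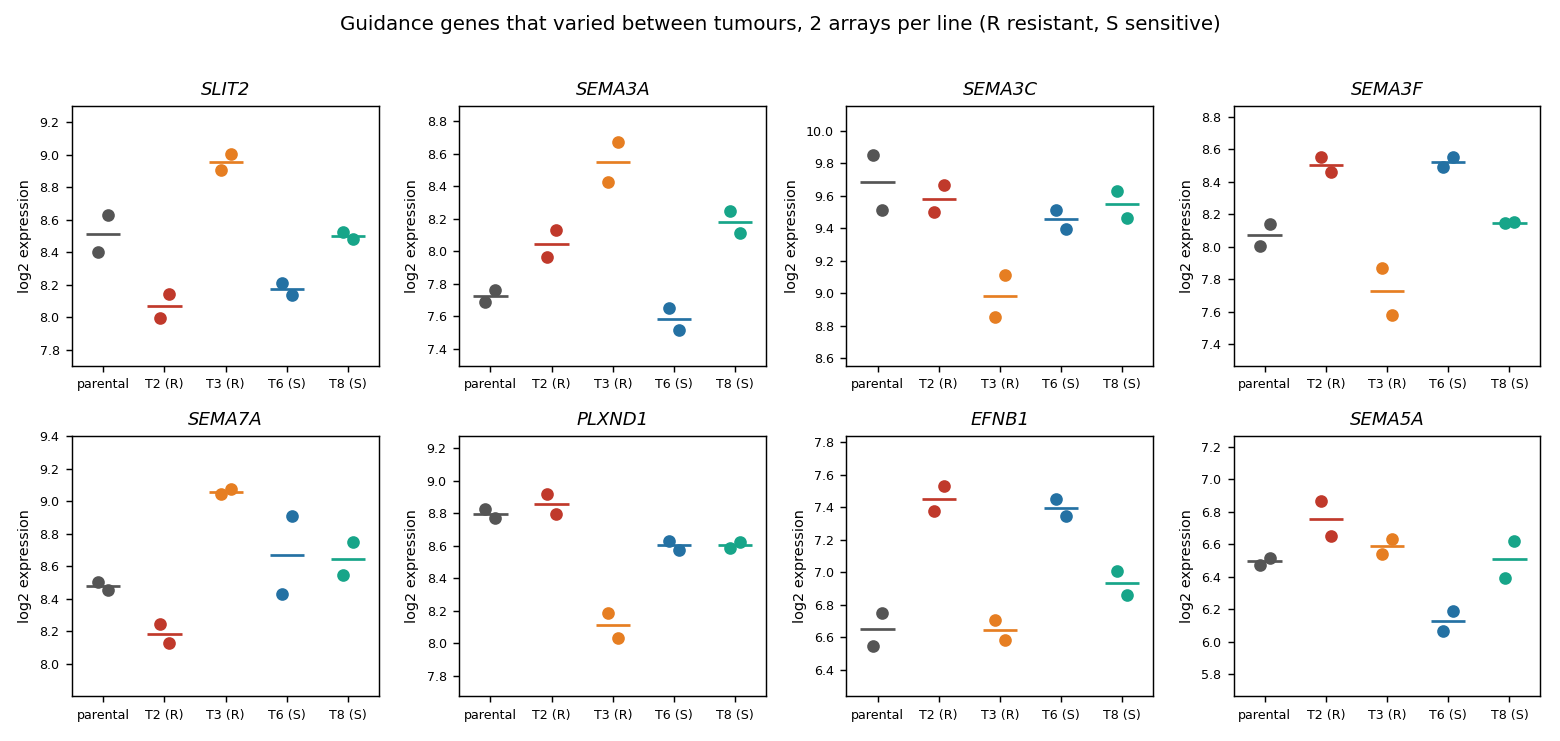
Log2 expression of 8 guidance genes called between tumours, by line (parental, T2, T3, T6, T8), with 2 arrays as points and the line mean as a bar. T3 is highest for SLIT2, SEMA3A and SEMA7A and lowest for SEMA3C, SEMA3F, PLXND1 and EFNB1, and T2 and T6 lie together and high for SEMA3F and EFNB1.

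Set against the parental arrays, which all 4 comparisons share, T2 had 18 of 40 guidance genes called, 10 higher and 8 lower, where 33.0% of all genes were called, 17.5% higher and 15.5% lower. In T3 it was 18, 11 higher and 7 lower, against 37.9% of all genes, 22.1% higher and 15.8% lower. SEMA3E, which passed the filter through T3 alone, is in the counts of genes higher in T3 and in T8. T6 had 16, 8 higher and 8 lower, against 34.5%, 20.7% higher and 13.7% lower; repeated quantile normalisation gave 8 higher and 13 lower, and centred medians 8 and 5. T8 had 20, 12 higher and 8 lower, against 43.8%, 28.7% higher and 15.1% lower; the same alternatives gave 8 higher and 10 lower, and 13 and 4.

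The last question was whether the guidance genes separated the resistant from the sensitive tumours. With the tumour as the replicate, 2 lines against 2, limma called 0 of the 40 and 0 of all genes (0.00%), and the smallest adjusted p over all genes was 0.894. At an unadjusted p under 0.05 (limma on line means) there were 661 of 14929 genes, and 2 of the 40 guidance genes, SLIT1 and SEMA4D. Neither share is above what that threshold gives by chance. Every resistant array lay above every sensitive array in SLIT1 alone (1 of 40, 2.50%, against 3.97% of all genes), and below in SEMA4D alone (1 of 40, 2.50%, against 6.44%). SLIT1 read 6.48 to 6.85 in T2 and T3 and 6.29 to 6.45 in T6 and T8. SEMA4D read 6.54 to 6.81 in T2 and T3 and 6.93 to 7.25 in T6 and T8, with the parental arrays higher still.

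Over arrays, which compares these particular tumours, 12 of the 40 were called, against 19.0% of all genes. In T2 and T3 5 were higher than in T6 and T8 (4.76% of all genes) and 7 were lower (14.2%). Repeated quantile normalisation turned this balance, with 9 higher and 4 lower. SEMA3E, tested only through T3, is among the 5, with a difference of 1.11; its T2 mean of 4.52 was below both sensitive lines, at 4.62 and 4.82. NEO1 was lower by 0.80 ± 0.07 on the log2 scale (-0.80, adjusted p = 6.14e-06), but its T3 mean of 7.97 lay above the T6 mean of 7.59. SEMA3A was higher by 0.42 ± 0.07 (adjusted p = 0.00178), SEMA5A by 0.35 ± 0.09 (adjusted p = 0.0115), TENM3 by 0.35 ± 0.08 (adjusted p = 0.0113) and SLIT1 by 0.30 ± 0.10 (adjusted p = 0.043). SEMA4D was lower (-0.40 ± 0.08, adjusted p = 0.00399), as were ROBO3 (-0.27), EFNB2 (-0.26), SEMA3F (-0.22), SEMA4C (-0.18) and PLXNB2 (-0.17). For SEMA3A, however, the T2 mean of 8.05 was below the T8 mean of 8.18. The T2 mean was above the T8 mean for EFNB2 (9.88 against 9.83) and SEMA3F (8.50 against 8.15). NEO1, SEMA3A and SEMA4D kept their calls with each single array left out. SEMA3E kept its call too, but it was tested only because T3 was high, so this supports nothing. The other 8 lost theirs without at least 1 array. With the line as a random block none of the 12 was called. ROBO1 differed by -0.01 ± 0.08 (adjusted p = 0.92, limma over arrays). Endothelial markers moved in this comparison as well, with PECAM1 (0.34) and VWF (0.29) higher and CDH5 (-1.27), ENG (-0.69) and TIE1 (-0.41) lower in the resistant tumours; CDH5 and TIE1 had passed the filter through T8 alone. Of the fibroblast and pericyte markers, RGS5 (0.39) and ACTA2 (0.38) were higher, and of the macrophage markers LAPTM5 (-0.75) and CD14 (-0.37) were lower, with AIF1 (0.38) higher. The cultured parental cells had means of 7.25 for PECAM1, 4.99 for VWF, 3.59 for CDH5, 5.98 for ENG and 4.46 for TIE1. Their means were 6.40 for RGS5, 7.09 for ACTA2, 10.66 for LAPTM5, 5.75 for CD14 and 6.74 for AIF1. The part of these markers in the result was not tested.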

How the data were processed

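The authors deposited log2 expression values for 54675 probe sets on 10 arrays; RMA, affy and limma are named, without versions, per the submitters' processing notes. RMA corrects background, quantile-normalises and summarises each probe set, so a change shared by most genes is removed and low signals are compressed. The platform annotation gave 41091 probe sets with 1 gene symbol, 1801 with several and 11721 with none; 62 controls were left out. Symbols were updated through RefSeq (GRCh38.p14). Arrays have no read depth, and their number limits the precision.

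Differences were fitted here over all tested genes in limma 3.58.1 (R 4.3.3), with lmFit and a trended eBayes, which was tested on simulated data. The fit over arrays had 1 coefficient per line, with 5 residual and 9.39 prior degrees of freedom. Fits on line means, with the tumour as the replicate, had 3 residual degrees of freedom (prior 3.57) against parental cells and 2 (prior 2.73) between resistant and sensitive tumours. The parental cells gave 1 line mean, which was assumed to vary like those of the tumours. Calls needed a Benjamini-Hochberg adjusted p under 0.05.

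Array values were to be given for genes past 1 log2 unit between tumours and parental cells or among tumours, and counts for the rest; array values of further genes were added after their values were seen. At most the 3 largest calls per direction were named in each wider list. The genes and lists were chosen with earlier results of these data known. Alternatives covered normalisation, filter, probe set choice, eBayes trend, blocks and leaving out arrays or tumours.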

Additional observations from a re-analysis of the deposited data

Results flagged for a closer look

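The 22 guidance genes below differed between the tumours in their change from the shared parental arrays, by limma's F-test over the 4 tumours. The value for each is the span between the highest and the lowest tumour mean in log2. In 3 of them tumours changed in opposite directions from parental cells: SLIT2 (0.88, T3 highest and T2 lowest), NEO1 (1.98, T8 and T2) and SEMA3F (0.80, T6 and T3). T3 was at one end for SEMA3E (2.63), SEMA3A (0.97), SEMA7A (0.87) and PLXNC1 (0.84), where it was highest. SEMA3E passed the filter through T3 alone. On another PLXNC1 probe set past the filter T3 was lowest, with a span of 0.25. On the other SEMA7A set T2 was highest, at -0.12 from parental cells. T3 was lowest for NTN4 (1.25), EFNB1 (0.81), PLXND1 (0.75), SEMA3C (0.60), SEMA4D (0.59), EFNB2 (0.57), ROBO3 (0.43), PLXNA2 (0.42) and PLXNA1 (0.40). Other probe sets past the filter did not always keep this order. Another set had T8 lowest for EFNB2 (-1.15 from parental cells) and PLXNA1 (-0.38), and T6 lowest for PLXNA2 (-0.53) and PLXND1 (-0.17). The other SEMA4D set spanned 0.09. In the remaining genes another tumour stood at each end: T2 highest for TENM3 (0.69), SEMA5A (0.63), SEMA4B (0.52) and SEMA4F (0.40), and T8 highest for SEMA4C (0.36) and PLXNB2 (0.33). The other PLXNB2 set past the filter had T2 highest (0.18 from parental cells), and the other SEMA4C set spanned 0.10. Each tumour had 2 arrays, too few to ask whether a single array stood apart.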

How the results depend on the processing

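Total counts of called guidance genes, both directions together, stayed within 1.5 times their value in all but these cases. For the tumours against parental cells, 19 became 5 with the line as a random block; with the tumour as the replicate, 3 became 1 without the probe sets whose names mark less specific probes (_s_at, _x_at, _a_at). Among tumours, 22 became 14 on the mean over probe sets. For resistant against sensitive tumours over arrays, 12 became 7 without the eBayes trend and 0 with the random block. Leaving out 1 array at a time gave 15 to 20 for tumours against parental cells, 3 to 3 with the tumour as the replicate, 15 to 19 in T2, 16 to 19 in T3, 11 to 16 in T6, 13 to 20 in T8, 20 to 24 among tumours, and 0 to 0 for the response with the tumour as the replicate. The T8 count was 13 without T8 replicate 1. The response over arrays ranged from 5 to 15: 5 without T8 replicate 1, and 6 without T2 replicate 1, T6 replicate 1 or T6 replicate 2.

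Counts in 1 direction moved more. With centred array medians, genes lower in the tumours went from 9 to 4, in T6 from 8 to 5 and in T8 from 8 to 4. With repeated quantile normalisation, genes lower in T6 went from 8 to 13, and in the response those higher went from 5 to 9 and those lower from 7 to 4. Without the less specific probe sets those higher in T2 went from 10 to 6 and in the response from 5 to 3. In the response those lower went from 7 to 4 on the mean over probe sets and to 3 without the eBayes trend. Among single arrays left out, genes lower in T6 fell to 5 without parental replicate 2, 4 without T6 replicate 1 and 3 without T6 replicate 2. In T8 those higher fell to 7 without parental replicate 1 or T8 replicate 1, and those lower to 5 without parental replicate 2. In the response over arrays they ranged from 3 to 7 higher and from 2 to 8 lower.

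Without the less specific probe sets, TENM3 turned to -0.12 over the tumours (adjusted p = 0.511 over arrays and 0.707 with the tumour as the replicate, limma), -0.14 in T3, -0.24 in T6 and -0.11 in T8. Under the same setting PLXNA2 turned to -0.28 in T2 and -0.39 in T8, and PLXNB2 to 0.18 in T2 and 0.15 in the response. PLXNA2 in T8 was -0.086 on the mean over probe sets, and NEO1 over the tumours was -0.027 without T8. The cause was not tested. ROBO1 kept its call under each of the 23 alternatives over arrays, at 2.65 to 2.77. It has a single probe set that passed each filter. The alternatives of filter and probe set choice therefore could not change its difference, which stayed at 2.71.

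Replicate numbers did not pair the arrays: 4 of 10 pairs of lines correlated above 0.1 in their deviations, from -0.39 to 0.50. With the replicate number as a block, 18 guidance genes were called between tumours and parental cells, 18 in T2, 18 in T3, 16 in T6, 19 in T8, 22 among tumours and 11 in the response over arrays.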
